A study of Homo sapiens with 19 samples.

Results

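Catalytically dead Cas9 (dCas9) was mapped by chromatin immunoprecipitation and sequencing (ChIP-seq) in K562, a cell line from chronic myeloid leukaemia, and its peaks were split by whether they carried acetylation of lysine 27 of histone H3 (H3K27ac) in any of 4 leukaemia lines. Of 393 dCas9 peaks on chromosomes 1 to 22, X and Y, 107 overlapped an H3K27ac peak of at least 1 line by 1 bp or more and are called marked, and the other 286 overlapped none and are called unmarked. The members were therefore selected on the H3K27ac lists themselves, so that the marked share and every H3K27ac value below are descriptions. The deposited dCas9 list holds 395 peaks, and 2 of them lie on other contigs and were left out. All coordinates are those of the human genome build hg38.

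The K562 cells of the dCas9 library expressed dCas9 fused to KRAB, a repressor domain, together with mCherry, and carried a pool of 4 lentiviruses, each with a single guide RNA (sgRNA) against LTR2B and a BFP reporter. LTR2B is a family of long terminal repeats left in the genome by endogenous retroviruses. The H3K27ac lists came from K562 cells with the same dCas9-KRAB construct and an empty sgRNA vector, from OCI-AML3 cells with this pair of constructs, and from Molm13 and HL-60 cells that received no treatment. Transduced cells had been sorted for mCherry and BFP. All but K562 are lines of acute myeloid leukaemia (AML). The K562 mark was therefore read in cells without the LTR2B sgRNAs, and vector and cell line cannot be told apart between the transduced and the untransduced lines. Each group had 1 library, so no test was made, and every interval given covers counting error over peaks only. The empty-vector dCas9 library was not analysed here.

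A guide directs Cas9 to a stretch of DNA that pairs with its 20 bases and is followed by the NGG motif, the protospacer adjacent motif (PAM). Pairing starts next to the PAM, in the so-called seed, and catalytically dead Cas9 is known to stay briefly on sites that match the seed alone. H3K27ac is found at active promoters and enhancers, where DNA is accessible. The 4 sgRNAs are shown first because marked and unmarked peaks differed in how they matched them. They are written 5′ to 3′, and capitals mark the 10 bases next to the PAM.
sgRNA 1: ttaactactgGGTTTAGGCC
sgRNA 2: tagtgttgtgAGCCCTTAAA
sgRNA 3: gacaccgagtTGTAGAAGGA
sgRNA 4: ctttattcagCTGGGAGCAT

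A site was defined as a 20-base match with at most 3 mismatches and an NGG, touching the called peak, and 276 of the 393 peaks held one. Marked peaks made up 17.0% of the peaks with a site (47 of 276, Wilson 95% interval 13.1 to 21.9%) and 51.3% of those without (60 of 117, 42.3 to 60.2%). The difference between peaks with and without a site was -34.3 percentage points (95% interval -44 to -24.1). Read the other way, 43.9% of marked and 80.1% of unmarked peaks held a site. Of all 200 bp tiles of the genome, 5.25% overlapped an H3K27ac peak of at least 1 line, below both shares, although a tile was narrower than most peaks with a site. Among peaks with a site, the marked share was 11.8% where the best site was exact (23 of 195, 7.99 to 17.1%), 28.0% with 1 mismatch (21 of 75, 19.1 to 39.0%) and 3 of 6 with 2 or 3 mismatches. By the number of different sgRNAs with a site, it was 27% for 1 sgRNA (17 of 63), 15.5% for 2 (15 of 97), 7.46% for 3 (5 of 67) and 20.4% for 4 (10 of 49). The interval for 4 sgRNAs, 11.5 to 33.6%, overlapped those of the other groups.

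The lines that carried the mark differed between peaks. By line, 76 dCas9 peaks were marked in K562 (19.3%), 75 each in Molm13 and OCI-AML3 (19.1%) and 41 in HL-60 (10.4%). The matching shares of 200 bp tiles were 2.87% for K562, 2.22% for Molm13, 2.65% for OCI-AML3 and 0.960% for HL-60, and the lists were of unequal length, from 20814 peaks in HL-60 to 37606 in OCI-AML3. In all 4 lines at once, 38 peaks were marked (9.67%, 7.13 to 13.0%), whereas 0.439% of tiles were. K562 alone marked 21 peaks and the AML lines without K562 marked 31. A single AML line marked 15 of these 31 peaks, 7 in Molm13, 7 in OCI-AML3 and 1 in HL-60.

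Peaks marked in all 4 lines lay mostly at promoters. Of these 38 peaks, 30 lay within 500 bp of an annotated transcription start site (TSS; 78.9%, 63.7 to 88.9%), 6 held an sgRNA site, and the median distance to a protein-coding TSS was 108 bp. In descending order of dCas9 fold enrichment, the nearest protein-coding genes of the 10 strongest were SERINC2, ZNF888 at 2 peaks, STK40, the gene pairs ANKRD34A and POLR3GL and EIF2A and SERP1, GPBP1, the pair DBF4 and SLC25A40, AEN and APOC1. The others were LCOR, IVNS1ABP, SKOR1, DAP, FBRS, ATF2, ZNF687, REXO4, TSN, NUDT9, TPST2, CUL2, NFATC2IP, CRCP, CREB3L1, PARP2, TMBIM4, PMPCB, SLC3A2, RABGAP1L, GRAMD1A, TMUB2, GLUL, SEPHS2, ZNF326, the pair CDC25C and FAM53C, MBOAT1 and PPM1F. Among these genes, EIF2A and SERP1 act in translation and in the stress response of the endoplasmic reticulum, DBF4 activates a kinase needed to start DNA replication, PMPCB is a subunit of the mitochondrial processing peptidase, and CUL2 is a scaffold of ubiquitin ligases.

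Peaks marked in K562 alone were less often at promoters than those marked in all 4 lines. Of 21, 4 lay within 500 bp of a TSS (19%, 7.67 to 40%), and 8 held an sgRNA site. That share at a TSS was still above the 5.94% of unmarked peaks and the 4.65% of tiles. Their nearest coding genes, by dCas9 fold enrichment, were PCNP, RBM15, TGDS, FOXN2, HSPA4, ZNF747, CHD6, GABBR1, KCNH2, RIPOR3, MRPS22, ADCY10, ARMC3, CREB3L2, ZNF169, ZNF320, MTCL1, ARHGAP35, ZC3H18, FOXD4L6 and NALF1. Their share at a TSS less that of the peaks marked in all 4 lines was -59.9 percentage points (95% interval -75 to -34).

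Peaks marked in AML lines but not in K562 mostly held sgRNA sites, as unmarked peaks did. Of 31, 25 held a site (80.6%, 63.7 to 90.8%) and 18 an exact one, against 2 of 21 with an exact site among peaks marked in K562 alone. The difference in exact sites was 48.5 percentage points, with a 95% interval of 22.6 to 65.5. For comparison, 80.1% of unmarked peaks held a site, and 195 of all 393 dCas9 peaks held an exact one. The shares of the peaks marked in AML lines without K562 were thus near those of dCas9 peaks in general. Marked in Molm13 and OCI-AML3 were the peaks nearest to FLOT2, NSUN4, POLQ, NLRP2, CNTNAP3C, CNDP2, NOD2, ALCAM, CHRNA6, MRPS6, ALKAL1, MAP2K1, EXOC2, RNASET2 and CYREN. Molm13 alone marked those nearest to RAB42, FRG2, R3HCC1L, NXT1, NTMT1, SLC38A10 and JARID2, and OCI-AML3 alone those nearest to NSUN4, MOAP1, AMOT, CHORDC1, MYO3B, PAK6 and ACSF2. HL-60 alone marked the peak nearest to MCU, and HL-60, Molm13 and OCI-AML3 together the one at C12orf76. Over all 195 peaks with an exact site, OCI-AML3 marked 18 (9.23%, 5.92 to 14.1%), Molm13 16 (8.21%, 5.11 to 12.9%), K562 5 (2.56%, 1.10 to 5.86%) and HL-60 3 (1.54%, 0.525 to 4.42%). Tiles, as given above, were marked most often in K562. Among the marked peaks, the K562 mark was present at 54 of the 60 without a site (90.0%, 79.9 to 95.3%) and at 22 of the 47 with one (46.8%, 33.3 to 60.8%).

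The remaining combinations joined K562 with AML lines. Molm13, OCI-AML3 and K562 together marked 12 peaks, among them those nearest to BIK at 2 peaks, ODF3B, TNKS, H2BC13, LMLN, SCAND3, IER2, RPS23, TMEM214 and MCM3. Molm13 and K562 marked the peaks nearest to ZNF764 and NLRP6, OCI-AML3 and K562 those nearest to ZNF611 and DDX10, and HL-60 and K562 the peak nearest to USP25. The 2 peaks by BIK, a pro-apoptotic member of the BCL2 family, lay 1163 bp apart under the same H3K27ac peaks. They were the only marked peaks within 2 kb of another dCas9 peak, a distance at which 24 unmarked peaks also lay from a neighbour.

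Where a dCas9 peak was marked, the H3K27ac peak over it was usually among the stronger ones of its list. The strength of each H3K27ac peak was read as its percentile within the list of its own line, since fold enrichment is not comparable between libraries. A wide H3K27ac peak is more easily overlapped, and where several overlapped, the highest fold enrichment was taken. Both can raise the percentiles, and no background that weighs H3K27ac peaks by their length was computed. The median percentile was 85.1 for the 76 peaks marked in K562, 80.1 for 75 in Molm13, 74.9 for 41 in HL-60 and 81.0 for 75 in OCI-AML3. Peaks marked in all 4 lines had medians of 88.1 in K562, 88.4 in Molm13, 77.1 in HL-60 and 86.1 in OCI-AML3. The percentiles were lower for marks that fewer lines shared. The peaks marked in K562 alone had a median percentile of 69.2, and those of the AML lines without K562 had medians of 55.5 in Molm13 and 57.9 in OCI-AML3.

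Marked peaks lay nearer to genes. H3K27ac is itself found at active promoters, so a split on the mark favours this result. The share of H3K27ac tiles at a TSS was not computed, so a trait of the dCas9 peaks cannot be told apart from one of the mark. The same holds for the promoter share of peaks marked in all 4 lines. The median distance to the nearest protein-coding TSS was 3126 bp for marked peaks (quartiles 121 and 19050 bp) and 28167 bp for unmarked peaks (7285 and 144990 bp). The marked median was 1914 bp with H3K27ac peaks at a q-value below 0.01, 963 bp below 0.001 and 1182 bp with the H3K27ac lists cut to the length of the shortest, and stayed below the unmarked median in each. Within 500 bp of any annotated TSS lay 40.2% of marked peaks (43 of 107, 31.4 to 49.7%) and 5.94% of unmarked peaks (17 of 286, 3.74 to 9.31%), a difference of 34.2 percentage points (24.8 to 44). Protein-coding TSSs alone gave 36.4% and 2.80%. Of all 200 bp tiles, 4.65% lay that close to an annotated TSS and 2.81% to a coding one, close to the shares of unmarked peaks. The summit fell in an exon for 23.4% of marked and 5.24% of unmarked peaks. More than 100 kb from a coding TSS lay 11 of 107 marked and 85 of 286 unmarked peaks.

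This distance differed with the sgRNA site. Without a site, the median distance was 287 bp for marked and 25154 bp for unmarked peaks, and 35 of 60 marked against 2 of 57 unmarked peaks lay within 500 bp of a TSS, a difference of 54.8 percentage points (39.7 to 66.7). With a site, the medians were 8349 and 30457 bp, and 8 of 47 against 15 of 229 peaks lay at a TSS, a difference of 10.5 percentage points (1.42 to 23.8). Seen from the promoter, 35 of the 37 peaks without a site at a TSS were marked (94.6%, 82.3 to 98.5%), against 8 of the 23 with a site (34.8%, 18.8 to 55.1%). Away from TSSs the shares were 25 of 80 (31.2%) and 39 of 253 (15.4%).

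Of the 60 marked peaks without a site, most held a short match to the seed of 1 sgRNA close to the summit. In the 200 bp around each summit, the longest run of sgRNA bases directly next to an NGG was measured. In marked peaks without a site its most frequent length was 7 bases (25 of 60), and 46 of 60 had a run of at least 7 (76.7%, 64.6 to 85.6%), against 22 of 57 unmarked peaks without a site (38.6%, 27.1 to 51.6%). The share of all 200 bp tiles with such a run was 0.850%, and it was 1.05% of the tiles in K562 H3K27ac. The length of 7 was chosen after the lengths had been seen. At 10 bases, the length of the main analysis, the shares were 11 of 60 marked (18.3%) and 14 of 57 unmarked peaks (24.6%), with 0.0180% of tiles. The difference between marked and unmarked peaks was -6.23 percentage points, with an interval from -21 to 8.65 that includes 0. At 8 bases or more the shares were 21 of 60 (35.0%) and 16 of 57 (28.1%), a difference of 6.93 percentage points with an interval from -9.81 to 23. Most of the difference at 7 bases or more therefore lay in runs of exactly 7 bases, found in 25 of 60 marked (41.7%) and 6 of 57 unmarked peaks (10.5%), a difference of 31.1 percentage points (15.4 to 44.9). Of the 57 unmarked peaks, 30 had repeated sequence at the summit, described below, and runs of 7 bases at most. They lower each unmarked share given here, and all unmarked runs of 8 or more bases lay in the other unmarked peaks. Leaving the repeat peaks out would therefore put the unmarked share above the marked one at 8 and at 10 bases. At 7 bases the comparison was not repeated without them.

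**Figure D1:**
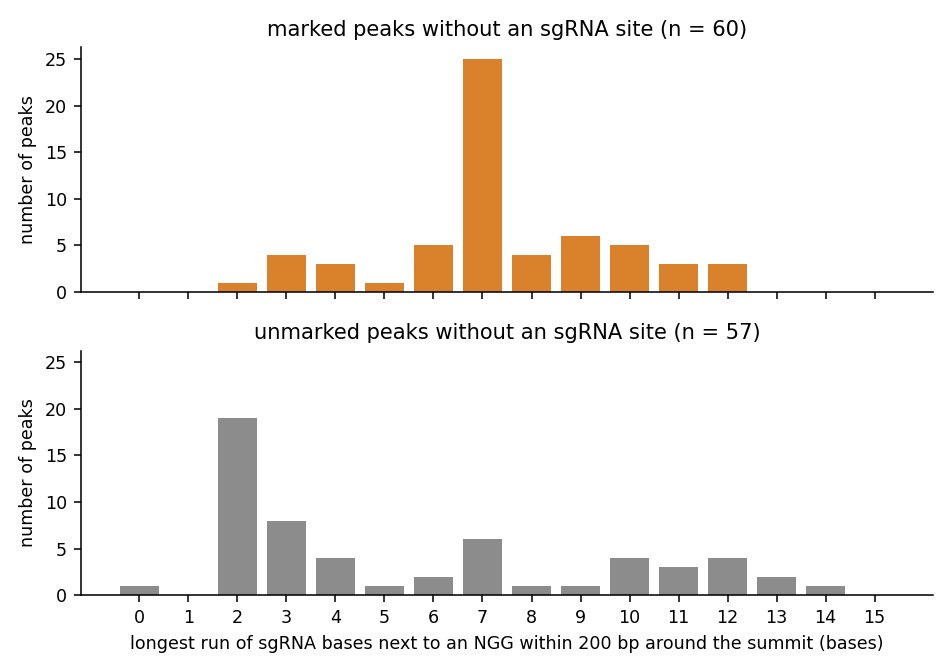
Number of dCas9 peaks without an sgRNA site (y axis) by the longest run of sgRNA bases next to an NGG in the 200 bp around the summit (x axis, bases), for marked (upper panel, n = 60) and unmarked peaks (lower panel, n = 57). Marked peaks pile up at 7 bases (25 peaks), and unmarked peaks are most frequent at 2 bases (19 peaks), with 6 at 7 bases and 14 at 10 bases and above.

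Most of these runs were those of sgRNA 3. Of the 46 marked peaks with a run of at least 7 bases, 39 carried that of sgRNA 3, 6 that of sgRNA 2, 1 that of sgRNA 4 and 0 that of sgRNA 1. Unmarked peaks without a site were alike, with 17 for sgRNA 3, 1 for sgRNA 2 and 4 for sgRNA 4. In the genome, sgRNA 3 gave 2184 of 4389 such runs in K562 H3K27ac and 72970 of 128251 outside H3K27ac. The centre of the run and its PAM lay within 20 bp of the summit in 32 of the 46 marked peaks. The strongest 5 marked peaks with a run of 7 to 9 bases at coding promoters are printed below, with the shared run and the PAM in capitals. All 5 matched sgRNA 3 and were marked in all 4 lines.
ANKRD34A and POLR3GL, chr1:145964587-145964609, minus strand: gaagcctaggaagAGAAGGAGGG
EIF2A and SERP1, chr3:150546556-150546578, plus strand: cccctcccgctggAGAAGGAGGG
GPBP1, chr5:57173960-57173982, minus strand: aggcggggcgaggAGAAGGAGGG
DBF4 and SLC25A40, chr7:87876340-87876362, plus strand: agagcgaggcgcgAGAAGGACGG
LCOR, chr10:96832061-96832083, plus strand: gcggcagccgcGTAGAAGGACGG
Over the whole 20 bases these sites shared 9 to 13 bases with sgRNA 3. GPBP1, a GC-rich promoter binding protein, had its run 0.5 bp from the summit, a dCas9 fold enrichment of 8.95 and H3K27ac fold enrichments of 3.74 in K562, 8.66 in Molm13, 6.92 in HL-60 and 4.84 in OCI-AML3. LCOR, a corepressor of nuclear receptors, had a run of 9 bases at 1.5 bp from its summit and a dCas9 fold enrichment of 8.41.

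Peaks without a site that held longer runs occurred on both sides of the split. The 3 strongest of each are shown in the same way.
NLRP6, marked, sgRNA 2, chr11:278361-278383, plus strand: caccaaacgGAGCCCTTAAAGGG
NOD2, marked, sgRNA 3, chr16:50707904-50707926, minus strand: ctgaacatGTTGTAGAAGGAAGG
FBRS, marked, sgRNA 2, chr16:30658980-30659002, plus strand: actaactccGAGCCCTTAAAGGG
EIF1, unmarked, sgRNA 4, chr17:41695009-41695031, minus strand: tccccagtAGCTGGGAGCATAGG
PLIN5, unmarked, sgRNA 3, chr19:4529924-4529946, plus strand: cagtgaGAGTTGTAGAAGGAGGG
ULK3, unmarked, sgRNA 4, chr15:74846319-74846341, minus strand: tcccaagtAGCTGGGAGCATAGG
Runs in the marked peaks were 11 to 12 bases long and those in the unmarked peaks 12 to 14. All 14 unmarked peaks without a site that held at least 10 bases had the run within 20 bp of the summit, and so had 10 of the 11 marked ones. PLIN5, a coat protein of lipid droplets, was nearest to the one with the longest run.

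Across the whole genome, the run of sgRNA 3 was rarely under a dCas9 peak, and the rate differed with the mark. Of the 117 dCas9 peaks without a site, 54 were marked in K562, as were 2.87% of tiles. On average, sequence in K562 H3K27ac therefore lay under such a peak more often than sequence outside, with or without a run. The rates below were not set against this, and a difference beyond it was not tested. Of 1949 runs of exactly 7 bases inside K562 H3K27ac peaks, 25 lay under a dCas9 peak without a site (1.28%). Of 1622 in H3K27ac of another line only, 4 did (0.247%), and of 63221 outside H3K27ac, 13 did (0.0206%). Runs of 8 or 9 bases gave 9 of 216 (4.17%) in K562 H3K27ac and 2 of 9098 (0.0220%) outside. Runs of 10 to 14 bases gave 3 of 16 (18.8%) and 9 of 573 (1.57%). Runs of at least 15 bases of any sgRNA include the exact sites, but not every site with mismatches. Under any dCas9 peak, with or without a site, lay 23 of 35 such runs (65.7%) in K562 H3K27ac and 360 of 729 (49.4%) outside. The other guides gave fewer peaks at 7 bases: inside K562 H3K27ac, 0 of 627 runs of sgRNA 1, 1 of 549 of sgRNA 2 and 0 of 279 of sgRNA 4 lay under a peak without a site.

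**Figure D2:**
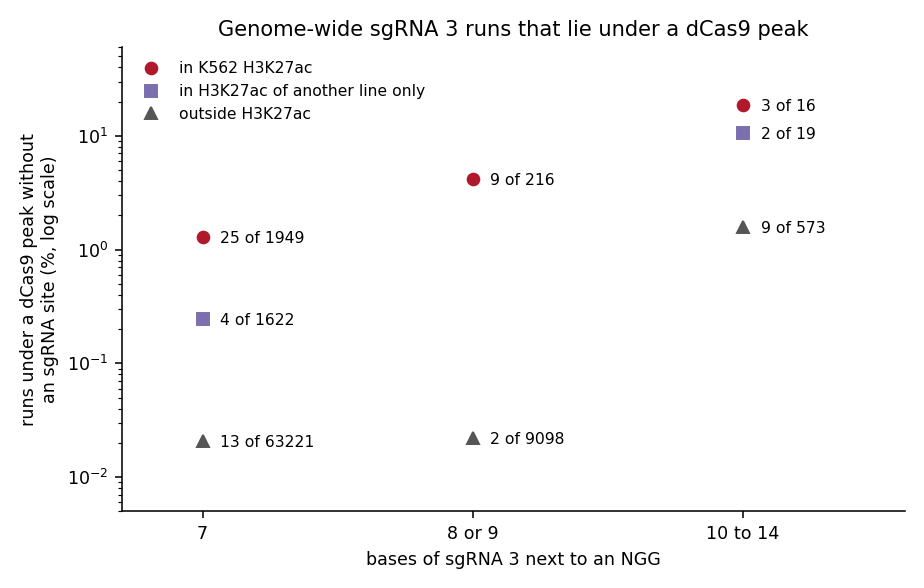
Share of the genome's sgRNA 3 runs that lie under a dCas9 peak without an sgRNA site (y axis, %, log scale) by the length of the run next to an NGG (x axis, bases), for runs inside K562 H3K27ac peaks (circles), in H3K27ac of another line only (squares) and outside H3K27ac (triangles); a share of 0 is not drawn. At 7 bases the shares are 1.28%, 0.247% and 0.0206%, and the labels give the counts.

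Of the 57 unmarked peaks without a site, 30 were of another kind, with repeated sequence at the summit. Fewer than 60% of the 12-base words in the 200 bp around the summit were distinct in these 30 peaks (52.6%), in 3 of 60 marked peaks without a site and in 0 of 276 peaks with a site. The difference between marked and unmarked peaks without a site was -47.6 percentage points (-60.4 to -32.2), and 0.236% of tiles, taken every 100th, were as repetitive. These 30 peaks held runs of the sgRNAs of 7 bases at most. The 2 unmarked peaks without a site at a TSS, at ADAP1 and at the noncoding gene LINC01596, belonged to them.

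The marked peaks with neither a site nor a run of 7 bases were 14. The strongest 2 of these were also the strongest marked peaks without a site. One lay 6995 bp from the TSS of BIK at chr22:43103425-43103755, with a dCas9 fold enrichment of 12.5 and H3K27ac fold enrichments of 3.46 in K562, 5.62 in Molm13 and 4.4 in OCI-AML3. The other lay in an intron of ZNF321P at chr19:52935667-52937201, was the widest of all dCas9 peaks (1535 bp) and had a dCas9 fold enrichment of 11.9. Among these 14 were also peaks at noncoding genes transcribed by RNA polymerase III, namely RNU6-1, which encodes U6 small nuclear RNA, with its TSS 1 bp from the peak, and RPPH1, which encodes the RNA of ribonuclease P, with its TSS at 227 bp. The RNU6-1 peak had a dCas9 fold enrichment of 7.90 and the RPPH1 peak, whose nearest coding gene is PARP2, one of 5.59. By its name in the study's methods, the lentiviral sgRNA vector itself carries a U6 element. Whether reads from that vector aligned at RNU6-1 was not tested.

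The other peaks among the 5 strongest marked ones without a site had runs of 9 to 12 bases. NLRP6, which encodes a cytoplasmic pattern recognition receptor, had an annotated TSS inside the peak at chr11:278186-278514. There the dCas9 fold enrichment was 11 and the H3K27ac fold enrichments were 3.01 in Molm13 and 3.60 in K562. TGDS was the nearest coding gene, at 31256 bp, of a peak at chr13:94549746-94549933 with a dCas9 fold enrichment of 10.7, marked in K562 alone. The fifth peak lay in a coding exon of NOD2, a receptor for bacterial muramyl peptides, at chr16:50707708-50707971. Its dCas9 fold enrichment was 10.4 and its H3K27ac fold enrichments 6.02 in Molm13 and 3.88 in OCI-AML3, with no mark in HL-60 or K562.

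The 5 strongest marked peaks with a site all held at least 1 exact site. The strongest lay in an intron of FLOT2 at chr17:28893667-28894318, with a dCas9 fold enrichment of 20.1, sites of all 4 sgRNAs and the mark in Molm13 (fold enrichment 6.0) and OCI-AML3 (4.42). The peak at C12orf76, at chr12:110049774-110050360, reached a dCas9 fold enrichment of 20 and was marked in the 3 AML lines. RAB42 was nearest to a peak at chr1:28586724-28587307 (dCas9 fold enrichment 19.3, marked in Molm13 alone), NSUN4 to one at chr1:46331864-46332440 (19.1, OCI-AML3 alone) and PCNP to one at chr3:101612745-101613326 (18.7, K562 alone). Each of these 3 peaks was marked by an H3K27ac peak below the median of its list, at percentiles of 48.0, 29.7 and 34.5.

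Only 6 marked peaks with a site lay within 500 bp of a coding TSS. In the printed sites, capitals now mark the bases that differ from the sgRNA.
C12orf76, sgRNA 3, chr12:110050058-110050080, minus strand: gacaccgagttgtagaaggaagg
ZNF888, sgRNA 4, chr19:52924042-52924064, minus strand: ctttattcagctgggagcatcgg
ZNF611, sgRNA 3, chr19:52735691-52735713, minus strand: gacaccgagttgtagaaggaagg
CNDP2, sgRNA 4, chr18:74500724-74500746, plus strand: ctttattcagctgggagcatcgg
APOC1, sgRNA 2, chr19:44914281-44914303, plus strand: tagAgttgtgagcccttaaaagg
REXO4, sgRNA 2, chr9:133418595-133418617, minus strand: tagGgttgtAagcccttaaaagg
Counted from the 5′ end of the sgRNA, the APOC1 site differed by T4A and the REXO4 site by T4G and G10A. APOC1, an apolipoprotein of lipoprotein particles, was marked in all 4 lines, with H3K27ac fold enrichments of 4.15 in K562, 8.75 in Molm13, 3.44 in HL-60 and 4.15 in OCI-AML3. Its dCas9 fold enrichment was 8.50, in the lower part of the range from 7.34 at REXO4 to 20 at C12orf76. ZNF888, a zinc finger gene, had a dCas9 fold enrichment of 16.9 and H3K27ac fold enrichments of 4.27 in K562, 9.75 in Molm13, 4.78 in HL-60 and 3.82 in OCI-AML3. ZNF611, with a dCas9 fold enrichment of 12, was marked in OCI-AML3 and K562, and CNDP2, a dipeptidase gene with one of 10.5, in Molm13 and OCI-AML3.

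Among unmarked peaks, 8 lay within 500 bp of a coding TSS, and the 5 strongest all held a site. A TSS here can be an alternative start of the gene, and its use in these lines was not examined. UBE2D2, a ubiquitin-conjugating enzyme, had an annotated TSS inside a peak at chr5:139525933-139526588. This peak had a dCas9 fold enrichment of 15.5 and sites of all 4 sgRNAs, and the nearest H3K27ac peak of any line was 7056 bp away. At UGT2B7, a glucuronosyltransferase, 2 peaks with dCas9 fold enrichments of 13.0 and 7.13 had their nearest H3K27ac peak 127283 and 127591 bp away. ART1 (dCas9 fold enrichment 11.7) and RHEX (8.37) had the nearest H3K27ac peak 1304 and 1150 bp away. Sites at 3 of these TSSs are shown with mismatches in capitals.
UBE2D2, sgRNA 2, chr5:139526196-139526218, plus strand: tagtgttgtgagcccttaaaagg
ART1, sgRNA 4, chr11:3644581-3644603, plus strand: Gtttattcagctgggagcatcgg
RHEX, sgRNA 3, chr1:206052945-206052967, minus strand: gacaccAaAttgtagaaggaagg
An exact sgRNA 2 site thus stood in the unmarked UBE2D2 peak, while the marked APOC1 peak held a mismatched one.

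Width and dCas9 enrichment differed less than position. Marked peaks had a median width of 177 bp (quartiles 121 and 273 bp) and unmarked peaks one of 226 bp (126 and 396 bp). Width enters the overlap, because a wider peak has more room to touch H3K27ac, but of the 99 widest peaks (381 to 1535 bp) 19 were marked (19.2%), and of the 98 narrowest (78 to 122 bp) 28 were (28.6%). The difference was -9.38 percentage points, with an interval from -21 to 2.55 that includes 0. With a site, marked peaks were 235 bp and unmarked peaks 292 bp wide in the median. Without a site, the order was turned, with 155 bp for marked and 114 bp for unmarked peaks. The dCas9 fold enrichment, which the split did not use, had a median of 6.95 in marked (quartiles 5.50 and 9.20) and 8.16 in unmarked peaks (5.77 and 11.7). It was 8.50 and 8.93 with a site, and 6.01 and 4.84 without one. Of the peaks without a site, 30 of 57 unmarked and 3 of 60 marked ones were the repeat peaks described above. Widths and enrichments without a site were not recomputed leaving these out. The 5 strongest dCas9 peaks of all were unmarked, nearest to POT1 (fold enrichment 26.3), DYNC1H1 (23.6), OXR1 (23.3), RPS23 (21.4) and MRPL20 (21.4), and each held an exact site.

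Base composition was measured in the summit base and 100 bp on either side. The median GC content was 52.2% in marked and 48.3% in unmarked peaks, and the ratio of observed to expected CpG dinucleotides was 0.520 and 0.390. Marked peaks without a site had 60.2% GC and a CpG ratio of 0.603, those with a site 50.7% and 0.469, and unmarked peaks with a site 47.8% and 0.420. Unmarked peaks without a site, 30 of 57 of them repeat peaks, had 53.7% GC and a CpG ratio of 0.134.

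By chromosome, the marked share was 5 of 8 on chromosome 22, 7 of 13 on chromosome 16, 4 of 8 on chromosome 17 and 9 of 19 on chromosome 19, and 2 of 29 on chromosome 4 and 1 of 18 on chromosome X. These chromosomes were picked for their shares, each holds few peaks, and most Wilson intervals overlap widely. On chromosome 1, with 36 peaks the most, 13 were marked. Without chromosome 19, 98 of 374 peaks were marked (26.2%).

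Marked peaks had 108 nearest coding genes and unmarked peaks 248, and RPS23 and ZNF320 were in both lists. Both lists are short against the 20007 coding genes, so little overlap would arise without any separation. Nothing is read from this overlap. Zinc finger genes, named by the prefixes ZNF, ZSCAN, ZKSCAN, ZFP and ZIM, were nearest to 9 of 107 marked peaks (8.41%, 4.49 to 15.2%) and 11 of 286 unmarked peaks (3.85%, 2.16 to 6.75%), and made up 2.84% of coding genes. The marked ones were ZNF169, ZNF320, ZNF326, ZNF611, ZNF687, ZNF747, ZNF764 and ZNF888, 5 of the 9 peaks holding a site. Apolipoprotein genes were nearest to 1 marked (APOC1) and 1 unmarked peak (APOL1), with 21 such genes, or 0.105% of coding genes. BCL2 family genes (16, 0.0800%) were nearest to the 2 marked BIK peaks, which lie at 1 locus. Of 19 leukaemia genes of chromatin and DNA methylation (0.0950%), DNMT3A was nearest to 1 unmarked peak. Haematopoietic transcription factors (27, 0.135%) and genes of MHC class I and antigen presentation (11, 0.0550%) were nearest to 0 marked and 0 unmarked peaks. Lists of this size leave room for few peaks, and nothing is read from these counts.

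Some peaks stood close to the line that parts the groups. The smallest overlaps were 29 bp nearest to AMOT, 36 bp at R3HCC1L and 41 bp at ZNF747, all at peaks with an exact site. On the other side, the smallest gaps to an H3K27ac peak were 8 bp at OSBPL11, 30 bp at RASD2 and 61 bp at HK1. The median gap of unmarked peaks was 14363 bp, with 25 of 286 within 1 kb of an H3K27ac peak (8.74%) and 83 within 5 kb (29%).

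The identity of the lines was checked at lineage genes, counted as acetylated where an H3K27ac peak lay within 500 bp of a TSS. Of 10 genes of the erythroid and megakaryocytic lineages, among them GATA1, TAL1, KLF1 and the globin genes HBG1 and HBZ, 10 were acetylated in K562 and 1 or 2 in each AML line. Of 10 myeloid genes, 10 were acetylated in Molm13 and in OCI-AML3, 8 in HL-60 and 5 in K562, where CEBPA, CEBPE, MPO, ELANE and CTSG were not. Of 8 lymphoid genes, 2 were acetylated in K562, Molm13 and OCI-AML3 and 3 in HL-60. How many of all coding genes were acetylated in each line was not computed. These counts therefore have no background, and they compare the lines on the listed genes only.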

How the data were processed

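Peak lists of 5 libraries were used. Per the study's methods and the submitters' processing notes, the authors trimmed reads with Trim Galore 0.4.5, aligned them to hg38 with Bowtie2 (2.3.4 in the notes, another version in the methods), kept uniquely mapped reads and called peaks with MACS2 2.1.1 at q 0.05, with the broad option for H3K27ac. The control library is not stated. Unique mapping lowers signal over near-identical repeat copies. The deposited columns are a score, the fold enrichment over local background (a ratio), the −log10 p-value and the −log10 q-value, and for dCas9 the summit. No read numbers are given, so sequencing depth is unknown.

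Overlaps, TSS distances (GENCODE v44) and sgRNA sites were computed on hg38 in Python 3.11.15 with pysam 0.24.0, and checked against bedtools 2.31.1 and planted sites. The sgRNA sequences came from the study's reagent list. Coordinates are 1-based. Wilson and Newcombe 95% intervals cover counting error only. Tiles are non-overlapping 200 bp windows without undetermined bases. Members, gene lists and tests were chosen with earlier results of these data known. Genes are named by combination of lines, with full values for the strongest peaks of each class, those at coding TSSs and those nearest the threshold; the gene lists of combinations with over 10 peaks were completed beyond the 10 strongest afterwards. Some items are not reported here. Alternatives changed the overlap, the q-value limits, the list length, the TSS definition, the mismatches and the seed length.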

Additional observations from a re-analysis of the deposited data

How the results depend on the processing

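Each of the 14 summary values was recomputed under its alternatives, which gave 100 values, and 90 stayed within the counting interval of the value reported or, for counts, within 1.5 times of it. With H3K27ac peaks at a q-value below 0.001, 22.9% of dCas9 peaks were marked. Unmarked peaks lay at a TSS in 9.44% of cases at 1 kb and in 2.80% with coding TSSs only. Among peaks without a site, a run of 6, 7, 8 or 12 bases was found in 85.0%, 76.7%, 35.0% and 5.00% of marked peaks, and in 42.1%, 38.6%, 28.1% and 12.3% of unmarked peaks; the lengths of 6 and 7 were added after seeing the data. Marked in all 4 lines were 29 to 43 peaks, in K562 alone 19 to 28 and in the AML lines without K562 21 to 31. No paired analysis was possible because the result comes from no test and every list is of 1 library. Without replicates or read numbers, the spread between libraries is unknown.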
